A study of Mus musculus with 6 samples.

Results

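Nkx2-3 encodes a homeobox transcription factor of the NK2 class, and its expression was described in bone marrow progenitors of mice with and without the P95H substitution in the splicing factor Srsf2. It was 1 of 26027 genes in the deposited count table, found there by its symbol (ENSMUSG00000044220). It was selected on its separation of the genotypes in these same libraries, so its genotype difference is given as a description and without a test. The cells were sorted from bone marrow as negative for lineage markers and positive for cKit and eYFP, and the labels call them immature multipotent progenitors. There were 3 Srsf2 P95H/+ libraries and 3 wild-type (Srsf2 +/+) libraries. All mice, the wild-type controls included, were C57BL/6, carried hScl-CreERT and R26eYFP and received tamoxifen. The hScl-CreERT transgene gives a tamoxifen-inducible Cre recombinase in blood stem and progenitor cells, and R26eYFP marks cells in which Cre has acted, so that only recombined cells were collected. In wild type, replicate 1 was from a 54-week-old female and replicates 2 and 3 from males of 32 weeks. P95H/+ replicates 1 and 2 came from females and replicate 3 from a male, all of 32 weeks. The labels do not say that each library is a separate mouse, so that p-values measure the spread between these libraries, which may be technical.

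As background, homeobox proteins bind DNA through the homeodomain, a compact fold with a recognition helix. Nkx2-3 is best known for its part in the development of the spleen and of gut-associated vessels, where it is needed for expression of the addressin Madcam1, a ligand for homing lymphocytes. In human blood it has been described among genes that are high in stem cells, and in mouse stem cells it has been linked to the autophagy kinase Ulk1. Srsf2 is a serine and arginine rich protein that binds CCNG and GGNG motifs in exons and helps to define which exons are spliced in. The P95H change shifts its preference toward CCNG.

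The gene is compact. On mm10 it lies on the plus strand of chromosome 19, chr19:43612325-43615892, and GENCODE M21 gives it 1 transcript with 2 exons. The first exon spans 43612325 to 43612849 (525 bases) and the second 43614306 to 43615892 (1587 bases), with an intron of 1456 bases between them. The coding sequence runs from 43612501 to the end of the first exon and from the start of the second exon to 43615042, and it encodes 362 residues. The homeodomain covers residues 145 to 204 and is encoded entirely by the second exon. No annotated gene overlaps Nkx2-3 on either strand. The nearest are the lincRNA Gm20467 on the minus strand and the miRNA gene Gm22646, both within 10 kb. No annotated gene would therefore share exonic reads with Nkx2-3, whichever strand setting the counting used.

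The exonic sequence on each side of the only intron and the homeobox are shown because they hold the splice junction that the transcript needs and the part that defines the protein. They come from the mm10 reference, plus strand, 5′ to 3′, at chr19:43612790-43612849 (the last 60 bases of exon 1), chr19:43614306-43614365 (the first 60 bases of exon 2) and chr19:43614389-43614568 (the 180 bases of the homeobox). Capitals mark matches to CCNG or GGNG on the transcript strand, and matches to these motifs may overlap each other.
end of exon 1: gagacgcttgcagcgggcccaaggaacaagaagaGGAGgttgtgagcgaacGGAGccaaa
start of exon 2: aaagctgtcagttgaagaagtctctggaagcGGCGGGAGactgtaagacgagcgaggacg
homeobox: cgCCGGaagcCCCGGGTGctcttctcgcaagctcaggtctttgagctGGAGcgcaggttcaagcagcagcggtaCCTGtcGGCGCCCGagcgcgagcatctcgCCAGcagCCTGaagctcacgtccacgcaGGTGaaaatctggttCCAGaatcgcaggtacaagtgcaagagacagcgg

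Beside the intron, the end of exon 1 held 0 CCNG and 2 GGNG matches, and the start of exon 2 likewise held 0 and 2. Over consecutive 60-base windows of the longest transcripts of 18688 protein-coding genes, 61.2% held CCNG and 51.9% held GGNG. The homeobox held 8 CCNG and 4 GGNG matches, and 89.9% and 85.2% of 180-base windows held at least 1 of each. Over its whole transcript Nkx2-3 had 53 CCNG matches, 25.1 per kb against a median of 20.3 per kb for 10461 tested protein-coding genes, the 69.9th percentile. It had 79 GGNG matches, 37.4 per kb against a median of 18.01 per kb, the 98.3rd percentile. The transcript is also rich in G and C, at 60.4% (the 96.1st percentile). These matches describe the letters and not binding, and the gene counts hold no junction reads, so the removal of this intron was not measured.

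Nkx2-3 had between 72 and 405 counts in a library. In CPM, which are counts scaled by the library total, wild-type replicates 1, 2 and 3 stood at 17.6, 16.3 and 13.8, and P95H/+ replicates 1, 2 and 3 at 6.09, 6.68 and 6.70. All 3 P95H/+ libraries lay below all 3 wild-type libraries, and the groups were 7.08 CPM apart at their closest. This separation is what the gene was selected on, and 5.93% of the 17144 tested genes had every P95H/+ library below every wild-type library, against 1.91% with every P95H/+ library above. The group means were 15.9 ± 1.95 CPM in wild type and 6.49 ± 0.345 CPM in P95H/+ (SD, n = 3 each), so that P95H/+ was at 40.8% of wild type. Over the 9 pairings of a P95H/+ library with a wild-type library, this share ran from 34.6% to 48.6%. Fewer cells that express the gene and less of its RNA per cell cannot be told apart in bulk RNA.

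**Figure D1:**
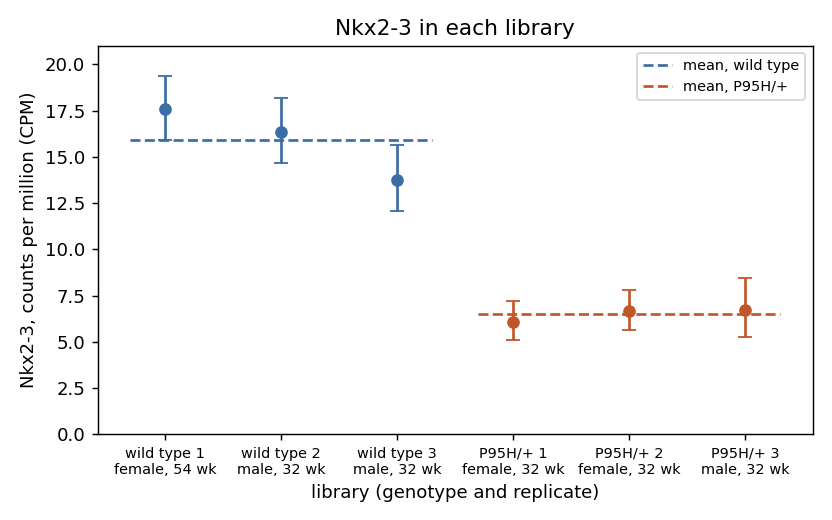
Nkx2-3 level in each of the 6 libraries in CPM, with bars for the exact 95% binomial interval of the count. The 3 P95H/+ libraries sit between 6.09 and 6.70 CPM, below the 3 wild-type libraries at 13.8 to 17.6 CPM.

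Counting error was smaller than the gap between the groups. The gene was selected on that gap, so the intervals describe depth and do not support a genotype difference. Exact (Clopper-Pearson) 95% intervals ran from 15.9 to 19.4, 14.7 to 18.2 and 12.1 to 15.7 CPM in the wild-type libraries. In the P95H/+ libraries they ran from 5.10 to 7.22, 5.65 to 7.83 and 5.24 to 8.44 CPM, and no interval of one genotype reached one of the other. These intervals cover counting error only. Wild-type libraries varied by a coefficient of variation of 12.3%, above the 4.97% to 6.57% that counting alone gives. P95H/+ libraries varied by 5.32%, less than the 8.14% to 11.8% of counting alone, so no difference among them was detectable at this depth. In wild type the 54-week female was the highest library and the males were lower, and in P95H/+ the male was level with replicate 2, a female. Age and sex cannot be told apart from the single libraries in this design, and their part was not tested.

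The fit across all genes gave Nkx2-3 a log2 fold change (P95H/+ minus wild type) of -1.22 (SE 0.22). Over 19 other settings of scaling, filter, test, covariate, library choice and GC correction the value stayed negative, from -1.38 to -1.15. The gene was selected on separated groups in these libraries, so the sign had little room to change and only the size is described. Leaving out 1 library at a time gave -1.32 to -1.15. With the replicate block it was -1.22 (SE 0.20). Leaving out replicate 3 of both genotypes gave -1.38 (SE 0.15), which was the only setting to move it by more than the SD of 0.14 between replicates. Among the 17144 tested genes 89 had a lower log2 fold change, and 22 of these had a mean of at least 2 CPM.

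**Figure D2:**
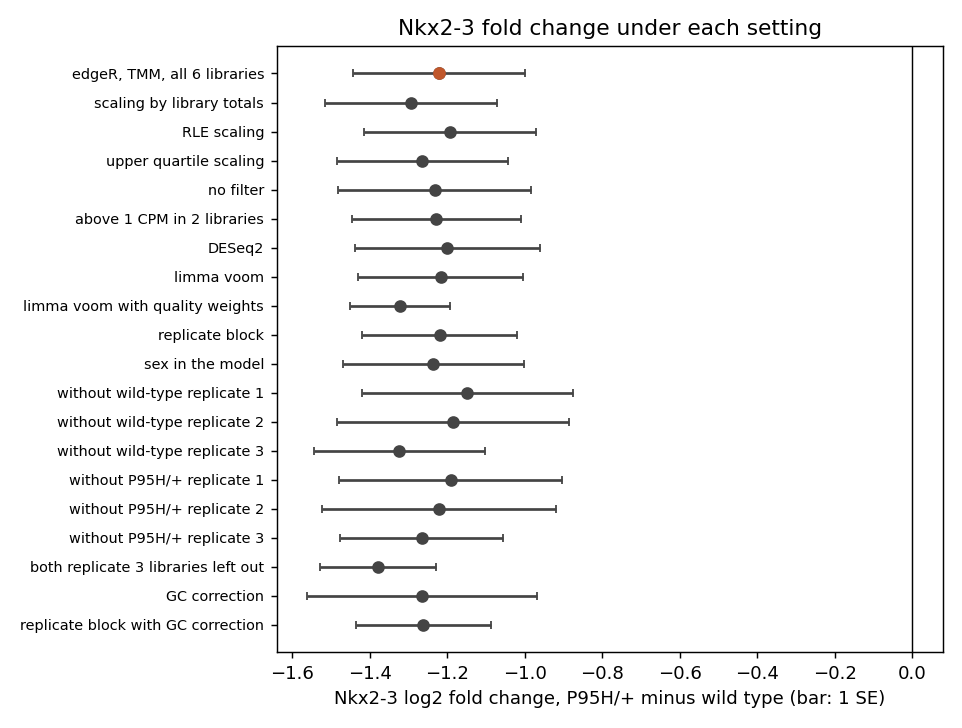
Log2 fold change of Nkx2-3 (P95H/+ minus wild type, bars 1 SE) in the 6-library comparison and under each other setting. Every point lies between -1.38 and -1.15.

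The replicate 3 libraries of both genotypes had the fewest counts of their group (16842751 and 10747941, against 21104066 to 23010510 for the other 4) and stood apart in base composition. Genes of the same GC content as Nkx2-3 show this directly. The 496 tested genes within 1% of its transcript GC stood above replicates 1 and 2 of their own genotype by a median of 0.56 (log2) for wild type and 0.94 for P95H/+, each in replicate 3. Nkx2-3 did not move with them, at -0.30 and 0.08 in these libraries. With TMM scaling alone Nkx2-3 stood at 17.1, 16.3 and 13.2 CPM in wild type and 6.25, 6.66 and 7.10 CPM in P95H/+. With TMM scaling and a correction of each library for its GC trend, it stood at 19.9, 17.9 and 10.9 CPM in wild type and 7.69, 7.82 and 4.67 CPM in P95H/+ (16.2 ± 4.72 and 6.73 ± 1.78, SD, n = 3 each). Wild-type replicate 3 was the lowest of its group with and without the correction, P95H/+ replicate 3 became the lowest of its group with it, and the spread was wider. The groups did not overlap, with 3.08 CPM between them, against 7.08 CPM with scaling by library totals alone. The gene was selected on this separation in the same counts, so this is a description and was not tested.

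Of 9 marker lists the progenitor list had the highest summed level in every library. The 11 progenitor markers summed to 6944 to 9276 CPM in wild type and 7858 to 8553 CPM in P95H/+. Mpo alone, at 4013 to 6367 CPM, held most of that sum. All 12 endothelial markers had counts and summed to 297 to 312 and 247 to 402 CPM, with members far apart. The vessel-defining Cdh5 and Cldn5 stood at or below 0.56 and 0.36 CPM. Pecam1, which progenitors also express, was at 101 to 146 CPM and Eng at 76.5 to 182 CPM, and these 2 held much of that sum. Tie1 was at 30.4 to 62.9 CPM and Egfl7 at 13.6 to 24.3 CPM. The 10 stromal markers summed to 49.2 to 55.5 CPM in wild type and 25.01 to 67.7 CPM in P95H/+, and the 9 mature B cell markers to 66.3 to 79.6 and 47.5 to 99.2 CPM. Pdgfrb, at 18.6 to 56.9 CPM, held most of the stromal sum. Col1a2 stood at 0.89 to 3.69 CPM in wild type and 5.54 to 9.33 CPM in P95H/+. The 7 plasma cell markers lay at 452 to 523 and 492 to 502 CPM, and the 8 macrophage markers at 208 to 239 and 185 to 219 CPM. Ighm (171 to 258 CPM) and Xbp1 (151 to 185 CPM) held most of the plasma cell sum, with Mzb1 at 1.48 to 4.08 CPM. Csf1r (146 to 191 CPM) held most of the macrophage sum, with C1qa at 0.43 to 1.52 CPM. The 12 T and NK cell markers lay at 17.6 to 33.6 and 7.16 to 19.5 CPM. The 8 neutrophil markers spanned 277 to 871 and 314 to 1373 CPM, and the 8 erythroid markers 454 to 657 and 291 to 1310 CPM. The ranges of the 2 genotypes overlapped for each of these 9 lists. Their part in the Nkx2-3 difference was not tested.

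Nkx2-3 was the only NK homeobox gene with appreciable counts. Of the 14 family members looked for, 7 were in the count table. Nkx2-3 had 1337 counts over the 6 libraries, and the next were Nkx2-4 with 25 and Nkx6-2 with 18. Nkx1-2 and Nkx6-1 had 10 each, Nkx6-3 had 5 and Nkx1-1 had 3. None of these 6 had enough counts to be tested, and the other 7, Nkx2-5 included, were not analysed here. Their coding sequences share little that could divert reads. The closest homeobox, that of Nkx2-5, is 86.1% identical in bases and 93.3% in residues, but the longest run of identical bases between Nkx2-3 and any family transcript is 36 (with Nkx2-2), against reads of 150 bases.

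On a scale that allows genes to be compared, CPM per kb of exon, Nkx2-3 stood at 8.33, 7.74 and 6.52 in wild type and 2.88, 3.16 and 3.17 in P95H/+. Among tested protein-coding genes this placed it at the 54.2nd, 52.4th and 49.3rd percentile in wild type, near the middle, and at the 32.2nd, 32.9th and 35.3rd percentile in P95H/+. Among 29 tested homeobox genes it ranked 9th in wild type, at 7.53 ± 0.924 CPM per kb (SD, n = 3). Its neighbours in that order, Pknox1 (a TALE class factor, 7.65 ± 0.524) and Satb1 (a chromatin organizer, 6.57 ± 1.16), did not differ from it beyond their spread. In P95H/+ it ranked 19th, at 3.07 ± 0.163 CPM per kb, between Tgif2 (a repressor, 3.18 ± 0.700) and Hoxa6 (2.87 ± 0.305), again within their spread.

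No other tested homeobox gene of the list had a log2 fold change as low as that of Nkx2-3. Nkx2-3 was selected on its difference, and only 89 of 17144 tested genes had a lower value, so this was likely for any 28 genes. Of 45 listed, 41 were in the table and 28 were tested, of which 17 had a positive and 11 a negative log2 fold change, with a median of 0.11 against 0.02 over all tested genes. By edgeR's quasi-likelihood test (two-sided, Benjamini-Hochberg over all 17144 genes) 0% of all genes passed an adjusted p of 0.05, and 0 of these 28 did. Unadjusted, 361 of all genes had a p under 0.05, 1.41% of them lower and 0.7% higher in P95H/+, and 0 of the 28 did. DESeq2 called 8 genes and limma voom 0. In 2 of the 28 (7.14%), Hhex and Pou6f1, every P95H/+ library lay below every wild-type library, a share near the 5.93% of all genes.

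Named members show how far they lay from Nkx2-3. Pou6f1, a POU domain factor, had the lowest log2 fold change of the homeobox list, -0.91 (SE 0.49), at 2.26, 2.56 and 2.08 CPM in wild type and 0.46, 1.15 and 2.05 CPM in P95H/+. Meis1, a stem cell cofactor of Hox proteins, stood at 159, 127 and 89.8 CPM in wild type and 83.3, 125 and 67.2 CPM in P95H/+, with overlapping groups. Cux1, the most abundant, had a log2 fold change of 0.13 (SE 0.21). Pbx3, Hoxa7, Hoxa2 and Hoxa3 were at 0.42 (SE 0.28), 0.34 (SE 0.25), 0.57 (SE 0.41) and 0.37 (SE 0.29). Their groups overlapped, with edgeR adjusted p of 1.00 for each. Hoxa2 had few counts, at 0.35 to 0.83 CPM over the libraries. Hox genes lie in dense clusters with antisense genes, so their counts are less certain than those of Nkx2-3. Without the replicate 3 libraries the median of the homeobox list was -0.05, and 18 of 28 were lower.

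**Figure D3:**
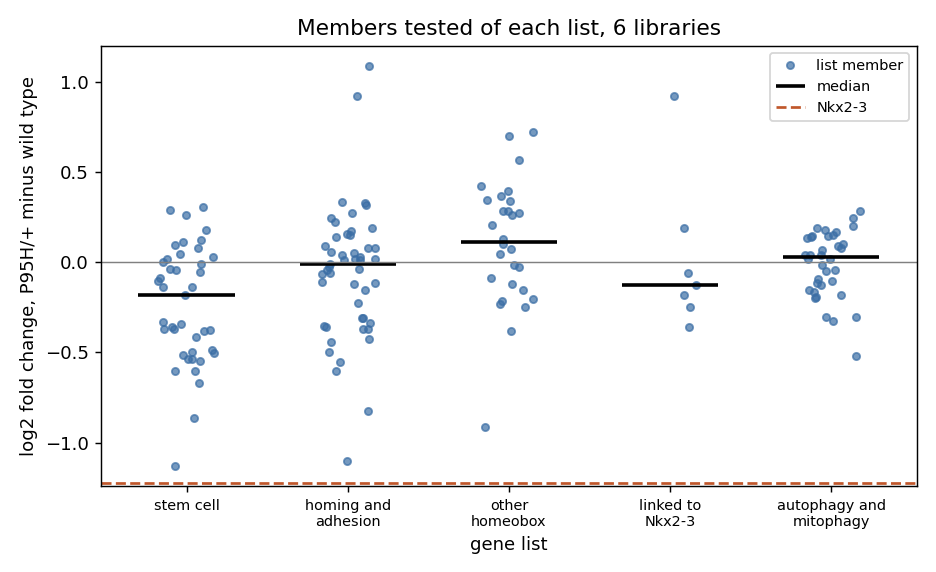
Log2 fold change (P95H/+ minus wild type) of each tested member of 5 gene lists, with the list median and the value of Nkx2-3. Some genes, such as Cd34, Meis1 and Vcam1, belong to several lists and are plotted in each, so the lists are not independent. Nkx2-3, at -1.22, lies below every tested member of each list. It was selected on its difference, and only 89 of 17144 tested genes lay lower, so this was likely in advance.

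Genes of stem cells and multipotent progenitors lay lower in P95H/+ more often than not, but none passed the test. None had a log2 fold change as low as that of Nkx2-3, which was likely in advance because Nkx2-3 was selected on its difference. Of 42 listed, 41 were tested, 12 with a positive and 29 with a negative log2 fold change, and the median was -0.18 against 0.02 over all tested genes. By edgeR 0 of 41 passed, and 2 had an unadjusted p under 0.05, both lower, against 1.41% of all genes lower and 0.7% higher. In 7 of 41 (17.1%) every P95H/+ library lay below every wild-type library, against 5.93% of all genes. In 0 of 41 every P95H/+ library lay above, against 1.91% of all genes. Leaving out the 54-week wild-type library, replicate 1, took the list median to -0.01. Without the replicate 3 libraries it was -0.45, with 35 of 41 lower.

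Pdzk1ip1, a membrane protein used as a stem cell marker, stood at 10.3, 8.67 and 10.2 CPM in wild type and 5.40, 5.53 and 6.51 CPM in P95H/+, a log2 fold change of -0.67 (SE 0.23). Its groups did not overlap, its unadjusted p was under 0.05, and edgeR's adjusted p was 1.00. Rarb, a retinoic acid receptor, Tgm2, a transglutaminase, and Txnip, a regulator of redox state and glucose uptake, followed at -0.55, -0.60 and -0.41. The most abundant members differed little: Adgrg1, an adhesion receptor, was at 0.08, Kit, the receptor used in the sort, at 0.10, and Cd34, a sialomucin, at -0.04. Neo1, a netrin receptor and the lowest of the list at -1.13 (SE 0.64), was named after its values were seen. It rested on wild-type replicate 1 at 4.78 CPM, with the other 5 libraries at 0.83 to 1.33 CPM.

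Set against the stem cell list inside each library, Nkx2-3 was again lower in P95H/+. Its log2 CPM minus the mean log2 CPM of the tested list members was -0.52, -0.19 and -0.30 in wild type and -1.23, -1.38 and -1.32 in P95H/+. The means differed by -0.97 and the groups by 0.71 at their closest. The list mean itself was 4.66, 4.23 and 4.09 in wild type and 3.84, 4.13 and 4.07 in P95H/+, with overlapping groups. This ratio is free of library scaling, but it holds the genotype difference that selected the gene and was not tested.

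Without the replicate 3 libraries, 0.645% of 17371 tested genes were called lower in P95H/+ and 0.184% higher at an edgeR adjusted p under 0.05, and 2 members of the stem cell list were among those lower. Prdm16, a regulator that maintains stem cells, had an edgeR log2 fold change of -1.07 there (adjusted p 0.0365), and Robo4, a guidance receptor, -1.31 (adjusted p 0.0258). Both were higher in P95H/+ replicate 3, at 13.9 and 9.49 CPM, than in P95H/+ replicates 1 and 2, at 6.04 and 8.98 CPM for Prdm16 and 3.09 and 4.29 CPM for Robo4. Nkx2-3 in P95H/+ replicate 3 was level with the other P95H/+ libraries. Of the homeobox list, Satb1 at -0.54 and Zfhx3, a zinc finger homeobox factor, at -0.58 were called lower in the same comparison (edgeR adjusted p 0.0272 and 0.0337). With 2 libraries a group these calls rest on little replication.

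Homing and adhesion genes, the class that Nkx2-3 is known for in vessels, were evenly split. Of 58 listed, 49 were tested, 24 with a positive and 25 with a negative log2 fold change, and the median was -0.01. By edgeR 0 of 49 passed, and 1, F11r, had an unadjusted p under 0.05 and was lower, against 1.41% of all genes lower. In 6 of 49 (12.2%) every P95H/+ library lay below every wild-type library, against 5.93% of all genes, and in 0 above, against 1.91%. F11r, a junctional adhesion molecule, stood at 8.60, 5.40 and 5.64 CPM in wild type and 2.81, 3.94 and 3.81 CPM in P95H/+, a log2 fold change of -0.82 (SE 0.29, edgeR adjusted p 1.00). Ephb4, a receptor for ephrins, was lowest at -1.10 (SE 0.68), at 0.22 to 1.30 CPM over the libraries, with overlapping groups. Ccr9, a chemokine receptor of gut-homing lymphocytes, was at -0.43 and Icam2, a ligand of leukocyte integrins, at 0.32. The abundant Cd47, Cd44 and Itga4, which act in recognition, matrix adhesion and binding to Vcam1, were at 0.08, -0.04 and 0.19. Without the replicate 3 libraries 31 of 48 were lower, with a median of -0.07, and 1, Robo4, was called.

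Inside each library Nkx2-3 was lower against this list in P95H/+. This ratio also holds the genotype difference that selected the gene, and it was not tested. The difference in log2 CPM was -0.85, -0.74 and -0.96 in wild type and -1.96, -1.95 and -2.06 in P95H/+, so the means differed by -1.13 and the groups by 0.99 at their closest. The list mean was 4.99, 4.78 and 4.75 in wild type and 4.57, 4.70 and 4.81 in P95H/+.

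Of the few tested genes that earlier work ties to Nkx2-3, more lay lower than higher in P95H/+, and none passed the test. Madcam1, its best known target in gut vessels, had counts of 1, 1 and 0 in wild type and 0, 2 and 0 in P95H/+, too few for any comparison. Ulk1, the autophagy kinase, stood at 72.6, 77.2 and 103 CPM in wild type and 57.2, 65.8 and 147 CPM in P95H/+, a log2 fold change of 0.19 (SE 0.39, edgeR adjusted p 1.00). Its highest value in each genotype was that of replicate 3, and without these libraries its log2 fold change was -0.26. Of the 16 genes of this list 10 were in the table and 7 were tested, 2 with a positive and 5 with a negative log2 fold change, with a median of -0.13. By edgeR 0 of 7 passed and 0 had an unadjusted p under 0.05, and in 0 of 7 did the groups separate. The share lower was 71.4%, against 46.9% of all tested genes. Without the replicate 3 libraries 6 of 7 were lower, with a median of -0.26, but leaving out wild-type replicate 1 took the median to 0.09.

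The tested members of the linked list ranged widely. Vcam1, an adhesion ligand of macrophages and stroma, stood at 24.0, 18.5 and 54.0 CPM in wild type and 98.2, 29.3 and 43.9 CPM in P95H/+, a log2 fold change of 0.92 (SE 0.55) with overlapping groups. S1pr1, a receptor for egress into blood, was lowest at -0.36 (SE 0.31). Vegfa, the vessel growth factor, was at -0.13 and Stab2, a scavenger receptor of sinusoids, at -0.18.

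The autophagy and mitophagy genes were centred on no difference. All 36 were tested, 20 with a positive and 16 with a negative log2 fold change, and the median was 0.03. By edgeR 0 of 36 passed, 0 had an unadjusted p under 0.05, and in 3 (8.33%) every P95H/+ library lay below every wild-type library, against 5.93% of all genes. One of these was Sqstm1, a cargo receptor, at 188, 200 and 215 CPM in wild type and 155, 166 and 179 CPM in P95H/+, a log2 fold change of -0.19 (SE 0.18). Park2 and Pink1, which mark damaged mitochondria, were at -0.52 and -0.33, and Fis1 and Phb2, proteins of mitochondrial membranes, at 0.24 and 0.28. Tax1bp1, an abundant cargo receptor, was at -0.01.

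No tested neighbour on chromosome 19 had a difference like that of Nkx2-3 in direction and size. As only 89 of 17144 tested genes had a lower value than Nkx2-3, this was likely for any 9 genes. Of the 5 nearest protein-coding genes on each side, 9 were tested and Hpse2 was not analysed here. By edgeR 0 of 9 passed, with adjusted p of 1.00 for each, and in 0 of 9 did the groups separate. Slc25a28, a mitochondrial iron importer and the nearest at 47.9 kb, had a log2 fold change of 0.20 (SE 0.24), at 31.2, 31.8 and 37.0 CPM in wild type and 31.4, 30.7 and 46.2 CPM in P95H/+. Entpd7, a nucleotide hydrolase 73.8 kb away, was at 0.03, and Got1, a transaminase 87.7 kb away on the other side, at 0.10. Cnnm1, 115.1 kb away, was at 1.32 (SE 0.71) on 4 to 19 counts a library. The remaining Cox15, Cutc, Abcc2, Hps1 and Pyroxd2 lay between -0.39 and 0.39.

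**Figure D4:**
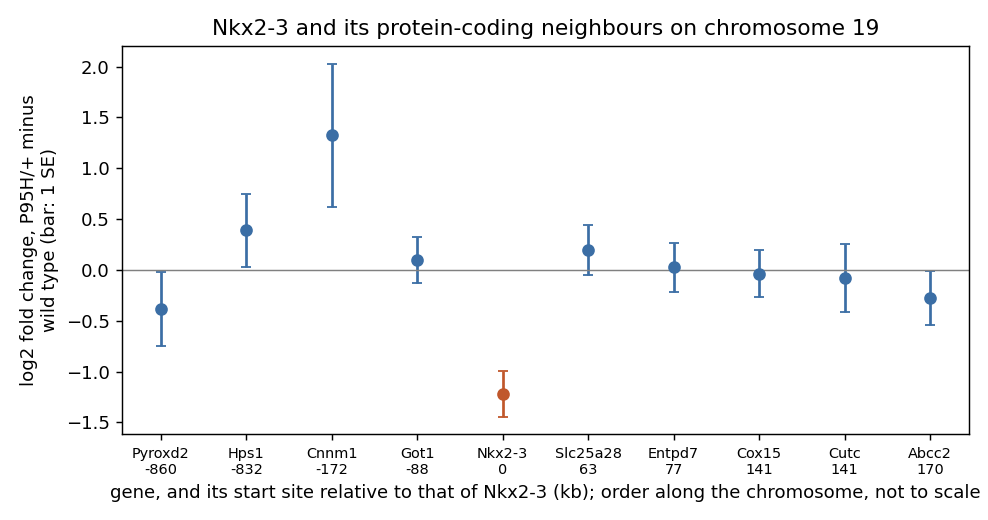
Log2 fold change (P95H/+ minus wild type, bars 1 SE) of Nkx2-3 and of the 9 tested protein-coding neighbours, in their order along chromosome 19. The neighbours other than Cnnm1, at 1.32, lie between -0.39 and 0.39, and Nkx2-3 lies at -1.22.

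The genes most like Nkx2-3 were sought by the root mean square difference of log2 CPM, centred on each gene's mean over the 6 libraries. This measure holds the genotype difference that selected Nkx2-3, so genes near it are genes with a like difference, and no test is given. Of 11309 genes ranked, the median difference was 0.70. The closest were Lax1, an adaptor of lymphocyte signalling, at 0.15, Scube3, a secreted signalling protein, at 0.17, Rab6b, a Golgi GTPase, at 0.19, Traf1, an adaptor of TNF receptors, at 0.21, and Cdkn1a, the cell cycle inhibitor p21, at 0.24.

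Lax1 stood at 10.995, 9.10 and 7.01 CPM in wild type and 4.15, 3.54 and 4.28 CPM in P95H/+. Scube3 stood at 8.08, 7.87 and 5.70 CPM in wild type and 2.03, 2.74 and 2.98 CPM in P95H/+. Cdkn1a stood at 50.6, 59.8 and 35.4 CPM in wild type and 20.2, 22.6 and 29.0 CPM in P95H/+. In all 5 genes, as in Nkx2-3, every P95H/+ library lay below every wild-type library, against 5.93% of all tested genes, and wild-type replicate 3 was the lowest of its group. The ranking by profile favours both traits, so they are not a separate result. Scube3 and Cdkn1a are each overlapped by a gene of the other strand, and Rab6b by Gm37166 on its own strand, with which it could share reads.

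**Figure D5:**
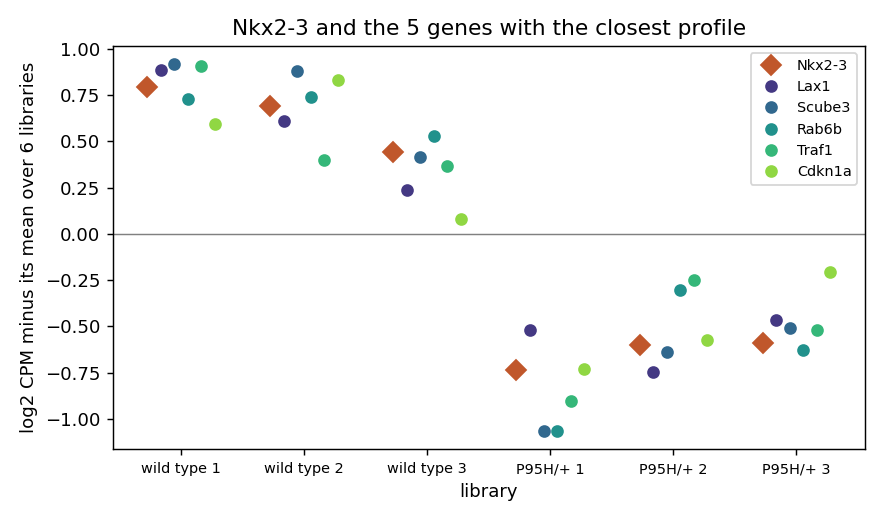
Log2 CPM minus the gene's mean over the 6 libraries, for Nkx2-3 (diamonds) and the 5 genes with the closest profile, in each library. Every point is above 0 in the wild-type libraries and below 0 in the P95H/+ libraries, which the choice by closest profile favours.

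Inside the genotypes the data hold little on which genes move with Nkx2-3. Deviations of log2 CPM from the genotype mean were 0.15, 0.05 and -0.20 for Nkx2-3 in wild type and -0.09, 0.04 and 0.05 in P95H/+, so a correlation over the 6 libraries rests mainly on wild type and on replicate 3. The libraries share depth and base composition shifts that move many genes together. With that limit, Pearson's r with Nkx2-3 had a median of 0.54 over the stem cell list, 0.30 over the homing list, 0.67 over the other homeobox genes, 0.27 over the linked list and 0.05 over the autophagy list, against 0.04 over all genes. It was above 0.8 for 6 of 41 stem cell genes (14.6%), 3 of 49 homing genes (6.12%) and 11 of 28 homeobox genes (39.3%), against 5.56% of all genes. Leaving out replicate 3 of both genotypes moved the stem cell median to 0.90 and the homing median to 0.83, but r then rests on 2 free values and nothing is read from it. Genes with a high r differed in their genotype difference: Scube3, at 0.90, had a log2 fold change of -1.42, whereas Hoxa7, at 0.98, had one of 0.34. Cxcr4, the receptor that retains progenitors in marrow, was at -0.87, with its highest level in wild-type replicate 3.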

How the data were processed

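Ribosomal RNA was removed, a stranded kit was used for the libraries, and paired reads of 150 bases were sequenced, per the labels' protocols. The submitters' processing notes name STAR 2.5.3a, featureCounts, Subread 1.5.1, Picard 1.96, cutadapt, Trim Galore, limma, edgeR and the build mm10, with no roles. Whether counting used strand is not given in the sources used here. The deposited table holds raw counts of 26027 genes. The authors' deposited CPM tables equal count over library total within 5e-04, and CPM here were computed from the counts. Library totals were 10747941 to 23010510.

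Genotypes were compared with edgeR 4.0.16 (R 4.3.3): TMM scaling, filterByExpr, robust quasi-likelihood F test, two-sided, Benjamini-Hochberg over all tested genes, threshold 0.05. SE follow from the F statistic. On simulated counts this fit (16812 genes) found 3.1% of 2-fold and 68.4% of 4-fold changes, with 6 false among 76 calls. Alternatives used DESeq2 1.42.0, limma 3.58.1 voom, other scalings and filters, sex, the replicate number, left-out libraries and a GC correction (natural spline, 4 degrees of freedom, as an offset). Deviations from genotype means correlated across genes between same-numbered libraries at 0.351, 0.311 and 0.592, all above the 0.1 taken to pair them, although the labels tie the numbers to nothing. Differently numbered libraries were not compared, and both replicate 3 libraries share a shift in depth and base composition. These values therefore cannot show that the numbers pair libraries, and the replicate block is only an alternative setting. The log2 CPM values used a prior count of 0.5.

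Nkx2-3, the gene lists and the tests were chosen with earlier results of these data known. Named from each list are the 5 genes with the smallest p and the 3 most abundant, besides Madcam1, Ulk1, the NK family, 5 neighbours on each side and the 5 closest profiles with a mean of at least 2 CPM, leaving out Gm, Rik, pseudogene and immunoglobulin symbols. Prdm16, Robo4, Zfhx3, Neo1, Hhex and Cxcr4 were named after their values were seen. A few genes chosen this way are not reported here. Gene models, sequences and GC content come from GENCODE M21 (mm10), in which 25878 identifiers were found. Of 50 named genes checked, 30 overlap a gene of the other strand and 11 a gene of their own strand, with which they could share reads.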

Additional observations from a re-analysis of the deposited data

How the results depend on the processing

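The log2 fold change of Nkx2-3 kept its sign in all 19 other settings, which its selection on separated groups made likely. It moved by more than 1 SD between replicates only when both replicate 3 libraries were left out (-1.38). The count of genes called was 0 with all libraries, 8 by DESeq2, 97 by limma voom with quality weights, 144 without both replicate 3 libraries, and 0 to 1 leaving out 1 library at a time. With the replicate block it was 1, and 1 with the block and GC correction together, and the block alone changed the direction of no list median. Without both replicate 3 libraries the stem cell median was -0.45, the homeobox median -0.050 and the autophagy median -0.020, and the median r with Nkx2-3 was 0.90 over the stem cell list and 0.83 over the homing list, on 4 libraries, where r rests on 2 free values and says nothing of stability. The homing median was 0.013 with RLE scaling, 0.014 by DESeq2, 0.023 with the GC correction and 0.015 with the block and GC correction. The autophagy median was -0.047 with scaling by totals, -0.020 by upper quartile and -0.085 with sex in the model. Leaving out 1 library gave -0.065 to 0.20 for the homeobox list, -0.29 to 0.087 for the linked list, -0.061 to 0.033 for the autophagy list, -0.33 to -0.013 for the stem cell list and -0.12 to -0.003 for the homing list. The medians that changed sign lie near 0 in the comparison of all 6 libraries, except those of the homeobox (0.11) and linked (-0.13) lists, and the cause of each change was not tested. On simulated counts with 3 libraries a group, 2-fold differences were seldom called, so that counts of 0 say little of differences of that size.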
